A study of Nannochloropsis oceanica with 6 samples.

Results

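The loss of nitrogen over its first day was followed in Nannochloropsis oceanica IMET1, a single-celled marine alga of the eustigmatophytes, by setting 2 RNA-seq libraries of cells kept 1 day without nitrogen (N1) against 2 libraries of cells at day 0 (C0). The N1 cells came from log-phase cells that had been spun down, washed repeatedly with nitrogen-free medium and inoculated into nitrogen-free f/2 medium, where they were kept for 1 day under continuous light of 50 µmol photons m-2 s-1. The C0 cells were the log-phase cells before that transfer, grown in f/2 medium with nitrate under continuous light of 80 µmol photons m-2 s-1 and bubbled with air-level CO2. A further 2 libraries, from day 2 without nitrogen (N2), entered the fit only to share one estimate of the spread. All groups were the same strain. Nitrogen supply, the lower light, the washing and the passage of a day all changed together between C0 and N1, so that their effects cannot be told apart. The comparison covered all 9736 genes, of 10569 in the files, that reached 1 CPM (a gene's counts per 1000000 counts of a library) in at least 2 of the 6 libraries. It asked which cell functions changed on the first day beyond lipid, nitrogen assimilation, photosynthesis and ribosome genes. Of these genes, 5928 had a named function, 2305 a KEGG pathway (a curated map of metabolism), and 538 belonged to the lists for lipids, nitrogen, photosynthesis, ribosomes and related functions that were set aside here.

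Nitrogen is a building block of every amino acid and nucleotide, and an alga that runs out of it cannot build new protein or nucleic acid except from what it already holds. Such cells slow their growth, take up scarce nitrogen compounds from outside, release nitrogen from purines, urea and amines within, and move carbon towards stores. Membrane transport of this kind is paid for by ion gradients, which proton pumps set up at the cell membrane and at the vacuole, and protein kinases and transcription factors relay the nutrient state to the genes.

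The 6 libraries held between 4875347 and 6521919 counts in the genes tested, with 5201955 and 4875347 counts in the N1 libraries and 5030551 and 5197495 counts in the C0 libraries. Across genes, log2 CPM correlated with r = 0.984 between both N1 libraries and r = 0.987 between both C0 libraries, against 0.832 to 0.834 between N1 and C0, where genes are not independent replicates. The methods call the libraries of a group biological replicates, but no source used here says that they came from separate cultures, and p-values measure the spread between these libraries. Each value is a share of a library, so that fewer cells and less RNA per cell could not be told apart from a change in one transcript. By edgeR's quasi-likelihood test with Benjamini-Hochberg adjustment over all 9736 genes (2-sided, threshold 0.05), 6851 genes were called, which is 70.4% of those tested. Of them 3240 were higher (33.3%) and 3611 were lower (37.1%) in N1, and the median log2 fold change (log2 FC, N1 over C0) was −0.04. With a change of at least 2-fold asked for in addition, 1296 genes were higher (13.3%) and 1450 lower (14.9%). Both N1 libraries lay on one side of both C0 libraries in 84.4% of the genes tested, so that groups that do not overlap, given below for genes chosen as changed, follow from that choice and are descriptions. With so large a share of genes called, the counts for gene groups below are given as descriptions beside these shares, and "risen" or "fallen" is used only of genes past the test. The largest adjusted p in edgeR's test was 0.00108 among the genes named by the rule in the methods and the called genes added to them. It does not cover genes given only as members of lists, sub-lists or pairs, some of which are marked below for calls lost under other settings. Log2 FC is given with an approximate standard error. A count that was not a whole number, as arises when reads are divided among records, is marked as fractional. Library preparation did not keep the strand, so overlapping and antisense genes cannot be told apart.

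Of the 52 gene lists described, oxidative phosphorylation had the largest share of risen members and translation factors the largest share of fallen ones. The ranking holds for these lists only. The KEGG citrate cycle, which is not among them, had 30 of 37 genes higher and 4 lower (23 and 2 at least 2-fold, median 1.29). Oxidative phosphorylation had 42 of 55 measured genes higher (76.4%) and 8 lower, glycolysis and gluconeogenesis 45 of 68 higher (66.2%) and 12 lower, alanine, aspartate and glutamate metabolism 16 of 26 higher and 7 lower, and the peroxisome 32 of 59 higher and 12 lower. The lower counts were less stable, with 3 to 8 genes of oxidative phosphorylation over the alternative settings (3 by DESeq2, 4 without N1 replicate 2, 5 without either C0 replicate) and 5 to 13 of the peroxisome (5 by DESeq2, 6 without C0 replicate 1). Translation factors had 39 of 57 genes lower (68.4%) and 5 higher, aromatic amino acid synthesis 15 of 23 lower (65.2%) and 5 higher, protein processing in the endoplasmic reticulum 79 of 124 lower (63.7%) and 24 higher, and ribosome biogenesis 50 of 80 lower (62.5%) and 12 higher. Protein kinases stood near the background in both directions, with 55 of 157 higher and 59 lower, although single members changed by large factors. Of all genes called, 94 were at least 16-fold higher and 85 at least 16-fold lower, and 37 and 15 of these also had over 3 counts in each library and a mean of at least 10 CPM.

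**Figure D1:**
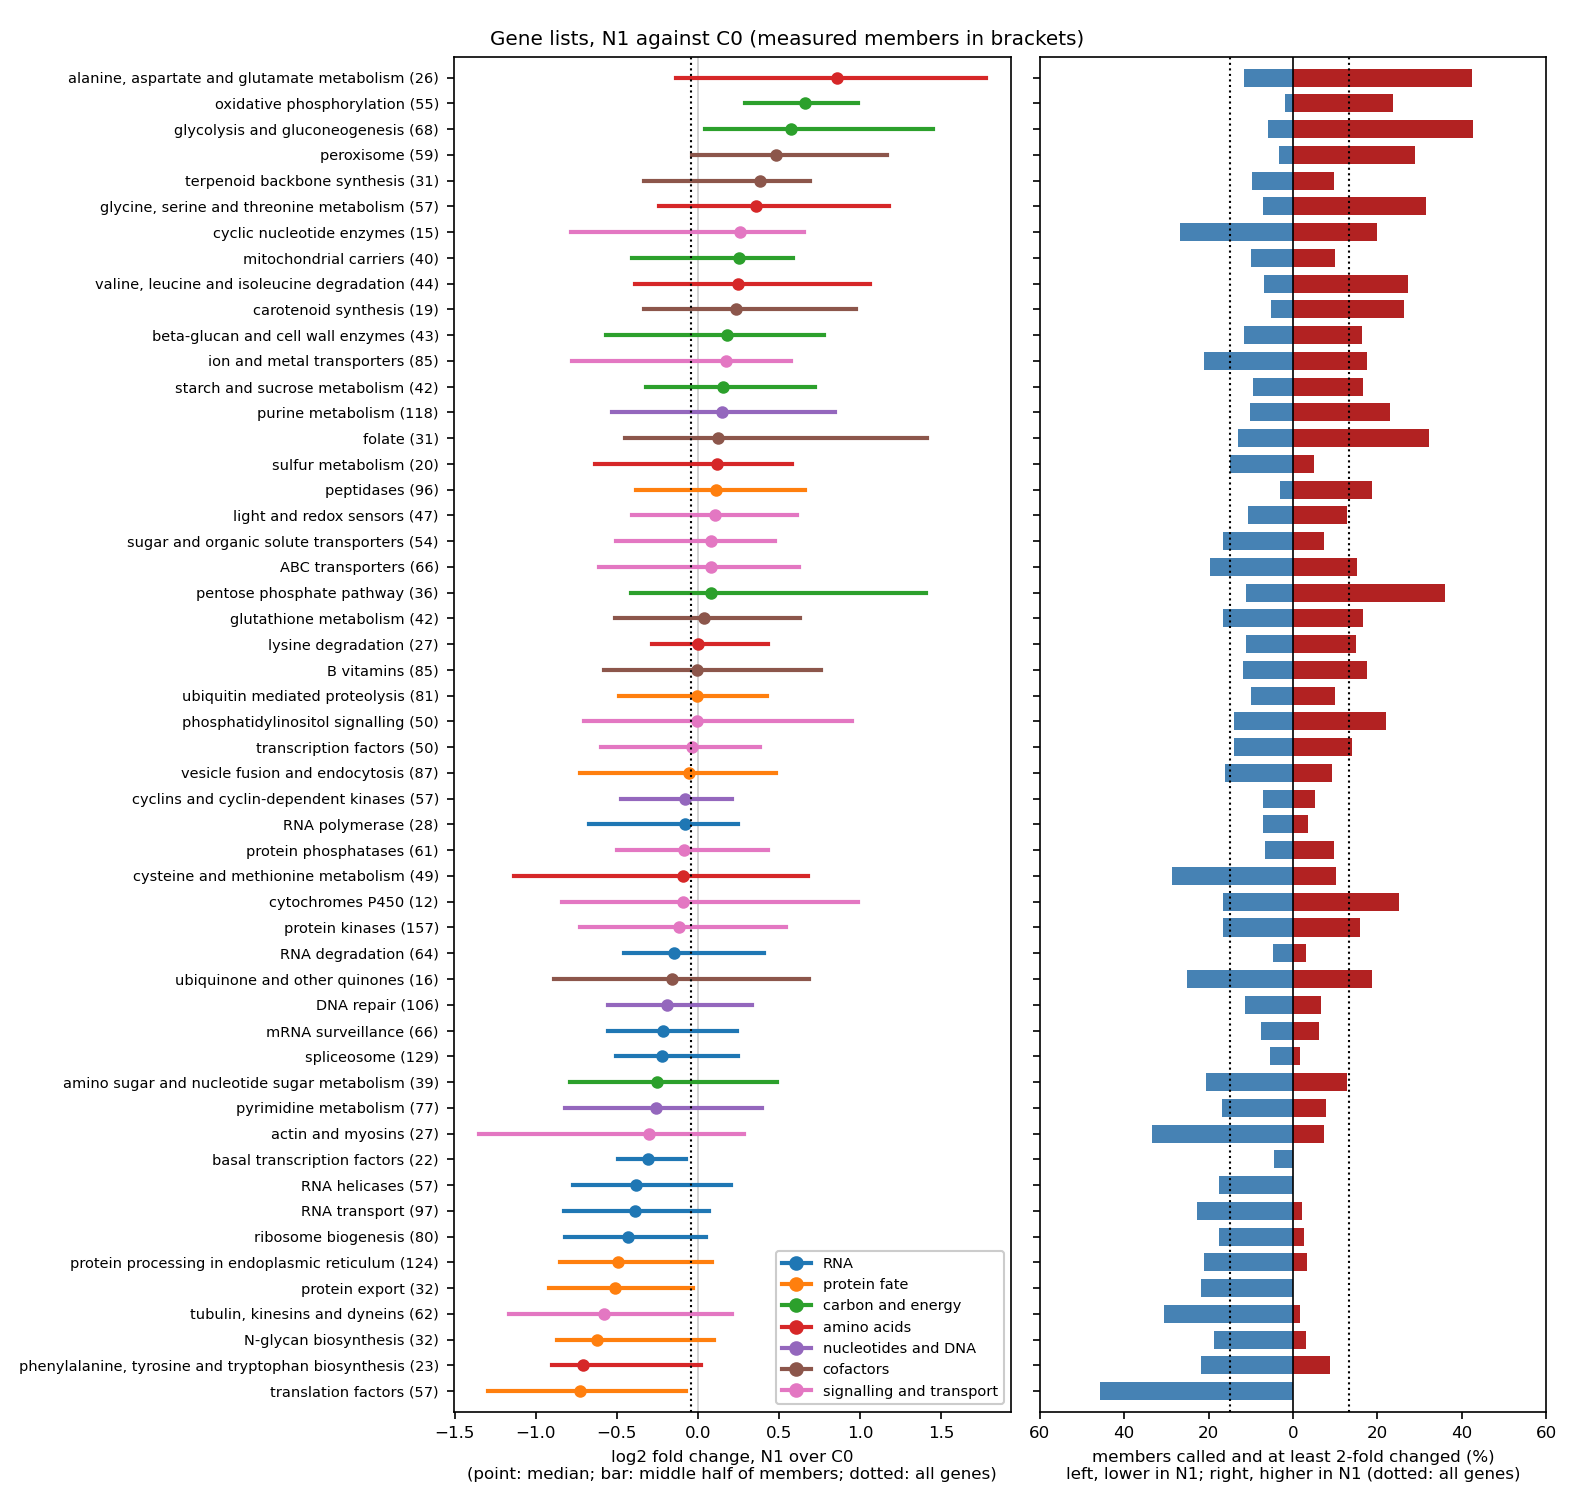
Median log2 FC (N1 over C0) of each gene list with the span of its middle members, from the 25th to the 75th percentile (left panel), and the members called at least 2-fold as a percentage of those measured (right panel, higher in N1 to the right of 0 and lower to the left), with all 9736 genes as dotted lines (13.3% higher, 14.9% lower). Translation factors reach 45.6% lower with 0 higher, and glycolysis and gluconeogenesis 42.6% higher with 5.88% lower.

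Some of the largest rises were in genes for moving protons and potassium across membranes. P-type proton ATPases pump protons out of plant and fungal cells at the expense of ATP, and all 4 genes of that description rose (median log2 FC 4.40). Probable proton ATPase 1B (NO17G00440, on chromosome 17, the number that stands before the G in each gene name) had 6044 and 6079 CPM in N1, against 48.0 and 44.6 CPM in C0, a log2 FC of 7.03 ± 0.038. The 1A genes NO12G00370, NO12G00380 and NO12G00390 stand side by side on chromosome 12, all with fractional counts, and had log2 FCs of 0.80 ± 0.041, 2.97 ± 0.048 and 5.83 ± 0.039. Of these, NO12G00390 had 3359 and 3430.3 CPM in N1, against 60.5 and 59.0 CPM in C0. For all 4 genes both N1 libraries lay above both C0 libraries. Summed over NO12G00380 and NO12G00390, which removes the division of reads between that pair, the level was 6279 and 6200 CPM in N1, against 425 and 418 CPM in C0, or 14.8-fold higher. That sum does not remove a division of reads with NO12G00370, which held more of the C0 level. NO12G00370 had 2925 and 2995 CPM in N1, against 1687 and 1707 CPM in C0. Together the 4 pumps made up 15248 and 15275 CPM in the N1 libraries, against 2160 and 2170 CPM in the C0 libraries. The V-type ATPase, which acidifies vacuoles, moved less but in step, with all 11 subunits higher (median 0.72, from 0.26 for subunit a to 1.18 for subunit G). Its 11 transcripts summed to 5870 and 5981 CPM in N1, against 3907 and 3880 CPM in C0. The other vacuolar pump, the pyrophosphate-energized proton pump NO13G01250, fell instead, with 718 and 696 CPM in N1, against 1388 and 1473 CPM in C0 (log2 FC −1.02 ± 0.039). These sub-lists were assembled after their values had been seen and carry no test as groups.

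A potassium channel (NO29G01700, fractional) had 663 and 603 CPM in N1, against 1.39 and 1.15 CPM in C0, the largest rise among all genes with over 3 counts in each library (log2 FC 8.94 ± 0.12). Its neighbour of the same description, NO29G01710 (fractional, chosen after its values were seen), held 1334 counts in N1, against 5 counts in C0, a ratio of 281 (95% exact interval 120 to 867, counting error only). The summed level of the pair was 440-fold higher, with 775 and 767 CPM in N1, against 1.59 and 1.91 CPM in C0. Another potassium channel, of the voltage-gated subfamily F (NO05G00130), had 475 and 492 CPM in N1, against 19.3 and 20.9 CPM in C0 (log2 FC 4.59 ± 0.075). Sodium/hydrogen exchanger 8 (NO03G02820), which trades sodium for protons, had 3209.6 and 3173 CPM in N1, against 66.7 and 73.1 CPM in C0 (log2 FC 5.51 ± 0.045). In each of these genes both N1 libraries lay far above both C0 libraries. A pair of neighbours on chromosome 8 described as sulfate carriers were low at C0 and rose as well. Of these NO08G00650 had 72.6 and 75.9 CPM in N1, against 3.18 and 2.49 CPM in C0 (log2 FC 4.70 ± 0.16). The other, NO08G00660, had 59.5 and 56.3 CPM in N1, against 1.98 and 2.87 CPM in C0 (log2 FC 4.56 ± 0.19). By contrast low affinity sulfate transporter 3 (NO11G01800) had 116 and 105 CPM in N1, against 575 and 563 CPM in C0, a log2 FC of −2.36 ± 0.058, and of 9 sulfate carriers in all (a sub-list assembled after the values were seen) 6 fell and 3 rose, with a median of −0.50.

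Over the whole list of ion and metal transporters, 40 of 85 genes were higher and 35 lower (15 and 18 at least 2-fold, median 0.17). Outside that list, 5 of 7 aquaporins (water channels) rose and 2 fell, of which PIP1-2 (NO13G03110) held very few counts and lost its call under most alternatives, the largest rise being SIP1-1 (NO01G03140) with 248 and 264 CPM in N1, against 54.4 and 62.8 CPM in C0. Of the 3 chloride channels 2 rose, chloride channel protein 2 (NO01G00340) with 488 and 446 CPM in N1, against 63.5 and 70.8 CPM in C0 (log2 FC 2.80 ± 0.066). The remaining one, CLC-e (NO03G05060), was lower at a log2 FC of −0.21 ± 0.080, a call that was lost under 7 of 13 alternative settings. The zinc transporter ZIP1 (NO04G03710, chosen after its values were seen) had 61.6 and 57.6 CPM in N1, against 8.14 and 7.28 CPM in C0. In these channels and in the zinc transporter both N1 libraries stood apart from both C0 libraries. Calcium-transporting ATPases were divided, with 5 of 13 higher and 6 lower. One of the largest falls among genes of named function with over 3 counts in each library was that of NO16G02820 (fractional), with 54.1 and 37.7 CPM in N1, against 1123 and 1141 CPM in C0 (log2 FC −4.62 ± 0.094). The next gene, NO16G02830 (fractional), fell with it and had 28.0 and 44.8 CPM in N1, against 136 and 135 CPM in C0.

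Phosphate uptake genes fell more often than they rose. Of 11 phosphate carriers and SPX proteins, the SPX domain being a sensor of phosphate status in plants and yeast, 6 fell and 3 rose (median −0.50). The fall of inorganic phosphate transporter 1-2 (NO16G02030, fractional), at a log2 FC of −0.50 ± 0.16, was a call lost under some alternatives. The phosphate permease PHO89 (NO24G00190), in yeast a sodium-coupled phosphate carrier, held 0 and 2 counts in the N1 libraries, against 629 and 679 counts in the C0 libraries. It was 621-fold higher in C0 by the counts of all 4 libraries (95% exact interval 171 to 5129, counting error only), and was thus close to switched off in N1. Inorganic phosphate transporter 1-12 (NO16G01940) fell too, with 239.7 and 239 CPM in N1, against 523 and 534 CPM in C0 (log2 FC −1.14 ± 0.048). A neighbouring pair of SPX domain membrane proteins (fractional, chosen after their values were seen) split. NO04G02810 was lower with 68.2 and 67.4 CPM in N1, against 403 and 389.8 CPM in C0, and NO04G02820 was higher with 21.6 and 22.8 CPM in N1, against 1.98 and 2.11 CPM in C0. Their counts were fractional, so that how reads were divided between them could move both values.

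ABC transporters, which carry compounds across membranes with ATP, had 27 of 66 members higher and 26 lower (10 and 13 at least 2-fold). ABC transporter G family member 29 (NO22G00530) fell with 35.3 and 42.8 CPM in N1, against 444 and 482 CPM in C0 (log2 FC −3.57 ± 0.082). The canalicular multispecific organic anion transporter 1 (NO25G01770), outside the list but of the same superfamily, fell with 52.5 and 55.2 CPM in N1, against 598 and 616 CPM in C0 (log2 FC −3.49 ± 0.062). ATP-binding cassette sub-family F member 1 (NO13G02810) fell as well, with 93.6 and 96.6 CPM in N1, against 526 and 482 CPM in C0, although proteins of that subfamily act on ribosomes and not in membranes. The largest rise named in the list was smaller, in sub-family G member 2 (NO18G01110, fractional), with 306 and 300.3 CPM in N1, against 83.2 and 87.1 CPM in C0. Sugar and organic solute transporters had 22 of 54 members higher and 17 lower. In that list solute carrier family 35 member F6 (NO30G01140) rose with 324 and 319 CPM in N1, against 18.7 and 19.5 CPM in C0 (log2 FC 4.07 ± 0.077). Facilitated glucose transporter protein 1 (NO07G01480) fell with 43.8 and 43.9 CPM in N1, against 249.7 and 226 CPM in C0 (log2 FC −2.44 ± 0.077).

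**Figure D2:**
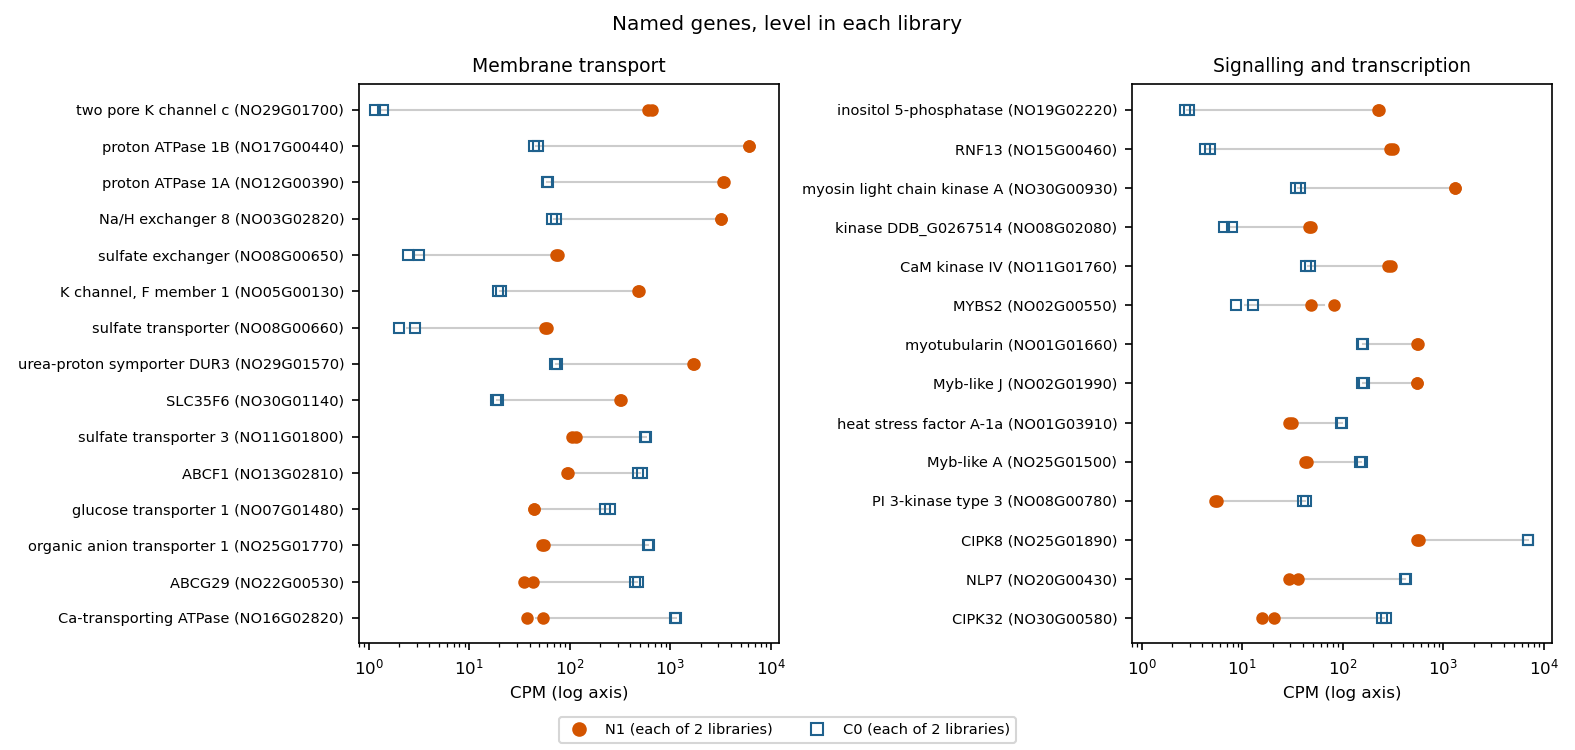
CPM per library on a log10 axis for the named genes of membrane transport and signalling. Each symbol is 1 library, filled circles N1 and open squares C0, and the genes of each panel run from the largest rise at the top to the largest fall. N1 and C0 symbols of a gene do not overlap, as with proton ATPase 1B at 6044 and 6079 CPM in N1, against 48.0 and 44.6 CPM in C0.

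Among the largest falls were genes whose relatives in Arabidopsis act in the response to nitrate. CBL-interacting protein kinase 8 (CIPK8, NO25G01890), a calcium-regulated kinase that in Arabidopsis takes part in nitrate sensing, had 567 and 552 CPM in N1, against 6886 and 6879.8 CPM in C0 (log2 FC −3.62 ± 0.028). CIPK32 (NO30G00580), of the same family, had 15.7 and 20.7 CPM in N1, against 269.9 and 246 CPM in C0 (log2 FC −3.83 ± 0.10). The dehydrogenase gene next to it, NO30G00590, fell alongside with 13.3 and 10.9 CPM in N1, against 197 and 181 CPM in C0 (log2 FC −3.96 ± 0.11). Protein NLP7 (NO20G00430), whose Arabidopsis counterpart is the transcription factor that turns on nitrate genes, had 29.3 and 36.0 CPM in N1, against 428 and 411 CPM in C0 (log2 FC −3.68 ± 0.093). Both N1 libraries were low and both C0 libraries high in each of these 4 genes, of which only CIPK8 and NLP7 are given here for a nitrate role.

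Kinases as a list moved in both directions, with 25 of 157 at least 2-fold higher and 26 lower. Of those that rose, a kinase described from Dictyostelium (NO08G02080, fractional) had 48.2 and 46.5 CPM in N1, against 6.55 and 7.85 CPM in C0 (log2 FC 2.71 ± 0.16). Calcium/calmodulin-dependent protein kinase type IV (NO11G01760) had 304 and 284 CPM in N1, against 47.6 and 42.9 CPM in C0 (log2 FC 2.70 ± 0.072). Myosin light chain kinase A (NO30G00930), which was not in that list but in the actin and myosin list, had 1309 and 1309.6 CPM in N1, against 33.9 and 37.5 CPM in C0 (log2 FC 5.19 ± 0.058). Of the listed kinases that fell, MAP kinase kinase kinase 2 (NO14G03100) had 74.3 and 73.8 CPM in N1, against 631 and 636 CPM in C0 (log2 FC −3.10 ± 0.055). The kinases tied to nutrient state were found on both sides (4 genes chosen after their values were seen, MAP kinase kinase kinase 2 included). KIN10 (NO02G00600), the catalytic subunit of the SNF1-related kinase that signals starvation in Arabidopsis, had 23.4 and 24.7 CPM in N1, against 5.36 and 5.55 CPM in C0 (log2 FC 2.14 ± 0.21). The growth regulator TOR was annotated at a pair of loci. At NO08G04260 it had 23.0 and 18.3 CPM in N1, against 78.2 and 85.6 CPM in C0 (log2 FC −1.98 ± 0.13). At NO16G00740 it had 123 and 120.2 CPM in N1, against 34.1 and 29.5 CPM in C0 (log2 FC 1.94 ± 0.093). A cGMP-dependent protein kinase (NO10G01760, also chosen afterwards) held 7 counts in N1, against 303 counts in C0, or 41.1-fold more in C0 (95% exact interval 19.7 to 103, counting error only).

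In phosphatidylinositol signalling 21 of 50 genes were higher and 20 lower. The largest change of a gene of this function, though outside the KEGG list, was in an inositol polyphosphate 5-phosphatase (NO19G02220, fractional), an enzyme that removes a phosphate from inositol signals, with 227 and 222 CPM in N1, against 2.98 and 2.68 CPM in C0 (log2 FC 6.30 ± 0.12). A phosphatidylinositol 3-kinase catalytic subunit (NO08G00780) fell, with 5.35 and 5.54 CPM in N1, against 43.3 and 40.4 CPM in C0. Myotubularin (NO01G01660, fractional), a phosphatase of the same lipid, rose with 555 and 541 CPM in N1, against 160.2 and 154 CPM in C0. Protein phosphatases had 20 of 61 members higher and 24 lower, and cyclic nucleotide enzymes 6 of 15 higher and 5 lower. The named members of the cyclic nucleotide list are glycerophosphodiester and zinc phosphodiesterases, which do not act on cyclic nucleotides, such as NO22G01530 with 511 and 496 CPM in N1, against 68.5 and 71.4 CPM in C0. Transcription factors had 15 of 50 members higher and 15 lower (7 each at least 2-fold). Myb-like protein J (NO02G01990) rose with 549 and 549 CPM in N1, against 163 and 155 CPM in C0. Myb-like protein A (NO25G01500) fell with 41.8 and 43.7 CPM in N1, against 149 and 155 CPM in C0. Heat stress transcription factor A-1a (NO01G03910, fractional) fell with 31.1 and 29.2 CPM in N1, against 98.6 and 96.3 CPM in C0. MYBS2 (NO02G00550, fractional) rose with 82.1 and 48.2 CPM in N1, against 12.9 and 8.62 CPM in C0, and here the replicates themselves differed widely. Of light and redox sensors 20 of 47 were higher and 12 lower, led by a thioredoxin of the TPR-repeat type (NO04G04630) with 1394 and 1386 CPM in N1, against 95.9 and 90.8 CPM in C0 (log2 FC 3.90 ± 0.047).

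Of 18 genes of purine synthesis 11 rose, 3 fell and 4 were not called. Of 6 genes sorted to pyrimidine synthesis 1 rose, described as an ammonia-type carbamoyl-phosphate synthase, 4 fell and 1 was not called. Both pathways build the bases of nucleic acids, purines from glycine, glutamine and one-carbon units and pyrimidines from carbamoyl phosphate and aspartate, and both draw on the activated sugar PRPP. In the KEGG lists, 53 of 118 genes of purine metabolism were higher and 40 lower (27 and 12 at least 2-fold, median 0.15), and 25 of 77 of pyrimidine metabolism were higher and 38 lower (6 and 13 at least 2-fold, median −0.26). Sorted after the values had been seen, each gene under 1 reaction, 18 genes covered 12 reactions between the making of PRPP and AMP or GMP. No gene was sorted to the formyl transfer between glycinamide ribotide and formylglycinamidine ribotide, so the set is not the whole pathway. Of the 12 reactions, 11 had a gene at least 2-fold higher. The exception was adenylosuccinate synthetase (NO15G00470), the first step towards AMP, with 231 and 209 CPM in N1, against 233 and 227 CPM in C0 and a log2 FC of −0.06 ± 0.060 that did not pass the test. The 18 transcripts summed to 12721 and 12825 CPM in N1, against 2760 and 2782 CPM in C0.

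The largest rise of the pathway was at its committed step. Amidophosphoribosyltransferase (NO03G03620, fractional, a record that also carries a glucosylceramidase annotation) had 2458 and 2406 CPM in N1, against 91.3 and 90.2 CPM in C0 (log2 FC 4.74 ± 0.039). The other gene of that description (NO13G01620) had 144 and 139 CPM in N1, against 274 and 279.9 CPM in C0 (log2 FC −0.97 ± 0.058), so that 1 gene was high and the other low in N1. With each gene sorted under 1 reaction, the same held for each of the 5 reactions with more than 1 gene. A single gene rose at least 2-fold and the others fell or missed the test. The bifunctional ADE1 gene (NO08G02280) was counted at 1 reaction only, so that its other activity is left out of this pattern. Counted at its other reaction as well, it would add a risen gene there, so that the pattern rests on this sorting. At PRPP synthesis NO01G05860 rose with 519 and 511 CPM in N1, against 113 and 115 CPM in C0 (log2 FC 2.17 ± 0.059), while NO22G01320 and NO20G00520 fell by log2 FCs of −1.41 ± 0.057 and −1.41 ± 0.093. Phosphoribosylformylglycinamidine cyclo-ligase NO04G00820 rose with 564 and 578 CPM in N1, against 63.9 and 56.3 CPM in C0 (log2 FC 3.25 ± 0.063), beside 0.14 ± 0.11 for NO13G01930, which did not pass the test. Formylglycinamidine synthase NO02G04090 (log2 FC 2.53 ± 0.036) and bifunctional ADE1 NO08G02280 (2.31 ± 0.060), sorted under the making of glycinamide ribotide, both rose. The second genes at these reactions were at 0.13 ± 0.094 (NO20G01910) and 0.02 ± 0.12 (NO05G01080), neither of them called.

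Further down, the carboxylase ADE2 (NO02G00950) had 788 and 804 CPM in N1, against 87.3 and 82.3 CPM in C0 (log2 FC 3.23 ± 0.053). The succinocarboxamide synthase NO20G00700 had 699 and 745 CPM in N1, against 81.8 and 86.0 CPM in C0 (log2 FC 3.10 ± 0.058). Adenylosuccinate lyase NO07G01790 and the last bifunctional enzyme to IMP, ADE17 (NO07G01560), rose with log2 FCs of 1.39 ± 0.063 and 2.18 ± 0.043. The branch to GMP rose at both of its steps. IMP dehydrogenase (NO02G03470) had 1718 and 1751 CPM in N1, against 213 and 199 CPM in C0 (log2 FC 3.08 ± 0.045). GMP synthase (NO27G00350) had 1182 and 1233 CPM in N1, against 191 and 195 CPM in C0 (log2 FC 2.65 ± 0.047). Elsewhere in the KEGG purine list adenosine kinase 1 (NO22G00410), which recycles adenosine, fell with 14.3 and 19.0 CPM in N1, against 115 and 106 CPM in C0. Guanylate kinase 2 (NO04G01360) fell with 35.9 and 36.9 CPM in N1, against 151 and 145 CPM in C0.

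**Figure D3:**
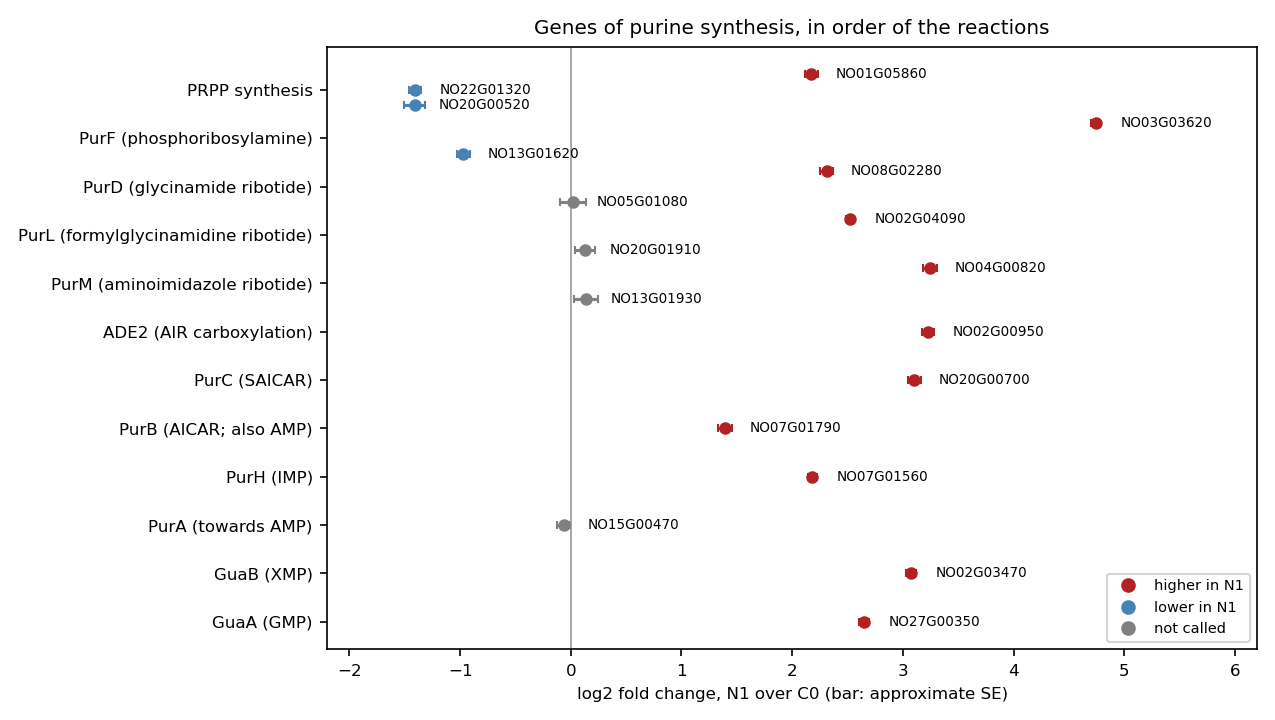
Log2 FC (N1 over C0) of 18 genes, each set under 1 of 12 reactions of purine synthesis, in the order of the pathway, with bars of 1 approximate standard error. In each of the 5 reactions with several genes a single point lies above 1 on the log2 scale, with the bifunctional ADE1 gene set under 1 reaction only, on which this pattern rests. The reaction with no risen gene is adenylosuccinate synthetase at −0.06.

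The 6 pyrimidine genes (a sub-list assembled after the values were seen) had summed levels of 2255 and 2244 CPM in N1, against 3423 and 3425 CPM in C0. PYR1-3 (NO01G04780), in Dictyostelium a multifunctional enzyme for the first steps of the pathway, had 321 and 298 CPM in N1, against 1499.8 and 1504 CPM in C0 (log2 FC −2.28 ± 0.046). CTP synthase (NO09G02120) and orotate phosphoribosyltransferase (NO07G02770) fell with log2 FCs of −1.43 ± 0.064 and −1.13 ± 0.076. Carbamoyl-phosphate synthase (NO05G03910) had 1657 and 1672 CPM in N1, against 1407 and 1409.9 CPM in C0 (log2 FC 0.24 ± 0.031). It is described as the mitochondrial ammonia type, which serves arginine synthesis, and its part in pyrimidine synthesis was not tested. This gene held most of the summed level in N1, so that the sum mutes the falls elsewhere in the sub-list. Dihydroorotate dehydrogenase (NO06G04300) was the fourth lower gene, at a log2 FC of −0.41 ± 0.13, and its call was lost under 4 of 13 alternative settings.

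Genes for urea uptake and breakdown were among the large rises. Of 11 measured genes of purine breakdown and urea handling, 7 rose and 1 fell, with summed levels of 3168 and 3182 CPM in N1, against 1082 and 1087 CPM in C0. Urease was annotated at NO02G06110 (fractional), with 714 and 712 CPM in N1, against 55.8 and 56.9 CPM in C0 (log2 FC 3.66 ± 0.058). It was also annotated at NO02G06090 (fractional), with 684 and 676 CPM in N1, against 70.5 and 71.0 CPM in C0 (log2 FC 3.27 ± 0.052). Urease splits urea into ammonia and carbon dioxide, and its nickel-loading accessory protein G (NO17G01380) rose along with it, with 470.0 and 489 CPM in N1, against 68.1 and 68.5 CPM in C0. Accessory proteins D and F did not, at log2 FCs of −0.06 ± 0.080 (NO14G02290, not called) and −0.43 ± 0.15 (NO08G03880, lower, a call lost under 4 alternatives). The urea-proton symporter DUR3 (NO29G01570), which in plants and yeast brings urea into the cell on a proton gradient, had 1742 and 1692 CPM in N1, against 71.7 and 74.5 CPM in C0 (log2 FC 4.55 ± 0.048). Along the route from purines to urea, uricase (NO02G02880, fractional) had 212 and 217 CPM in N1, against 93.1 and 94.97 CPM in C0. Guanine deaminase (NO03G03060) had 226 and 219 CPM in N1, against 123 and 124 CPM in C0. Xanthine dehydrogenase NO15G02770 rose by a log2 FC of 0.59 ± 0.043. The xanthine dehydrogenase/oxidase NO06G00310 (fractional) at 0.13 ± 0.077 and allantoicase (NO08G00340) at −0.13 ± 0.098 were not called.

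A copper amine oxidase, which releases ammonia from amines (NO15G02530, described as copper methylamine oxidase), had 941 and 1017 CPM in N1, against 47.0 and 44.6 CPM in C0 (log2 FC 4.42 ± 0.062). Molybdenum cofactor biosynthesis protein 1, needed for the cofactor of xanthine dehydrogenase and nitrate reductase, rose at both loci. NO24G02300 had 962 and 929 CPM in N1, against 99.6 and 103 CPM in C0 (log2 FC 3.22 ± 0.045). NO04G03660 had 193 and 207 CPM in N1, against 48.8 and 52.1 CPM in C0 (log2 FC 1.99 ± 0.073). Choline dehydrogenase (NO09G03100, fractional), which oxidizes choline towards betaine, had 558 and 587 CPM in N1, against 25.0 and 23.5 CPM in C0 (log2 FC 4.56 ± 0.068). The preceding locus of the same description, NO09G03090 (fractional), had 351 and 332 CPM in N1, against 337 and 328 CPM in C0. A proline/betaine transporter (NO10G04090) had 691 and 682 CPM in N1, against 69.3 and 74.1 CPM in C0 (log2 FC 3.26 ± 0.056). Its neighbour NO10G04080 (fractional) had 205 and 210.0 CPM in N1, against 329 and 312 CPM in C0 (log2 FC −0.63 ± 0.054). Within each pair 1 locus stood far higher in N1 and the other did not (the pair partners and the transporter were chosen after their values were seen). Both choline dehydrogenase loci had fractional counts, so that how reads were divided between them could move both values, which was not tested. Not every gene of nitrogen or sulfur release rose: a taurine dioxygenase (NO02G06060), which frees sulfite from taurine in bacteria, had 93.2 and 103 CPM in N1, against 1009 and 1031 CPM in C0 (log2 FC −3.38 ± 0.056).

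Most subunits of mitochondrial respiration rose. Its complexes pass electrons to oxygen and drive ATP synthesis. The KEGG list of oxidative phosphorylation had a median log2 FC of 0.66 (13 genes at least 2-fold higher and 1 lower), but it also contains the proton ATPases and pyrophosphatases described above. Within it, and again sorted after the values were seen, all 3 succinate dehydrogenase subunits rose. Its flavoprotein (NO01G01530) had 651 and 658 CPM in N1, against 150.5 and 137 CPM in C0 (log2 FC 2.19 ± 0.053). The iron-sulfur subunit (NO01G05020, fractional) and the cytochrome b560 subunit (NO17G00800) had log2 FCs of 2.51 ± 0.066 and 1.56 ± 0.12. Of the 16 complex I subunits 10 rose and 2 fell, with a median of 0.48 and none at 2-fold, and both falls were lost in some alternatives. The 6 subunits of the bc1 complex, cytochrome oxidase and ATP synthase in the sub-list all rose, from 0.46 ± 0.063 for ATP synthase subunit delta' (NO07G01310) to 1.27 ± 0.058 for cytochrome c oxidase subunit 6B (NO16G01610). The ATP synthase beta subunit (NO11G01140), which makes the ATP, had 2719 and 2777 CPM in N1, against 1706 and 1736 CPM in C0. Other listed members fell, namely an ATP synthase subunit alpha (NO09G03010) and the cytochrome oxidase assembly protein COX15 (NO05G03970, fractional), at log2 FCs of −0.35 ± 0.13 and −0.31 ± 0.086, calls that were lost in some alternatives. The remaining falls were the vacuolar pump NO13G01250 and 3 inorganic pyrophosphatases.

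**Figure D4:**
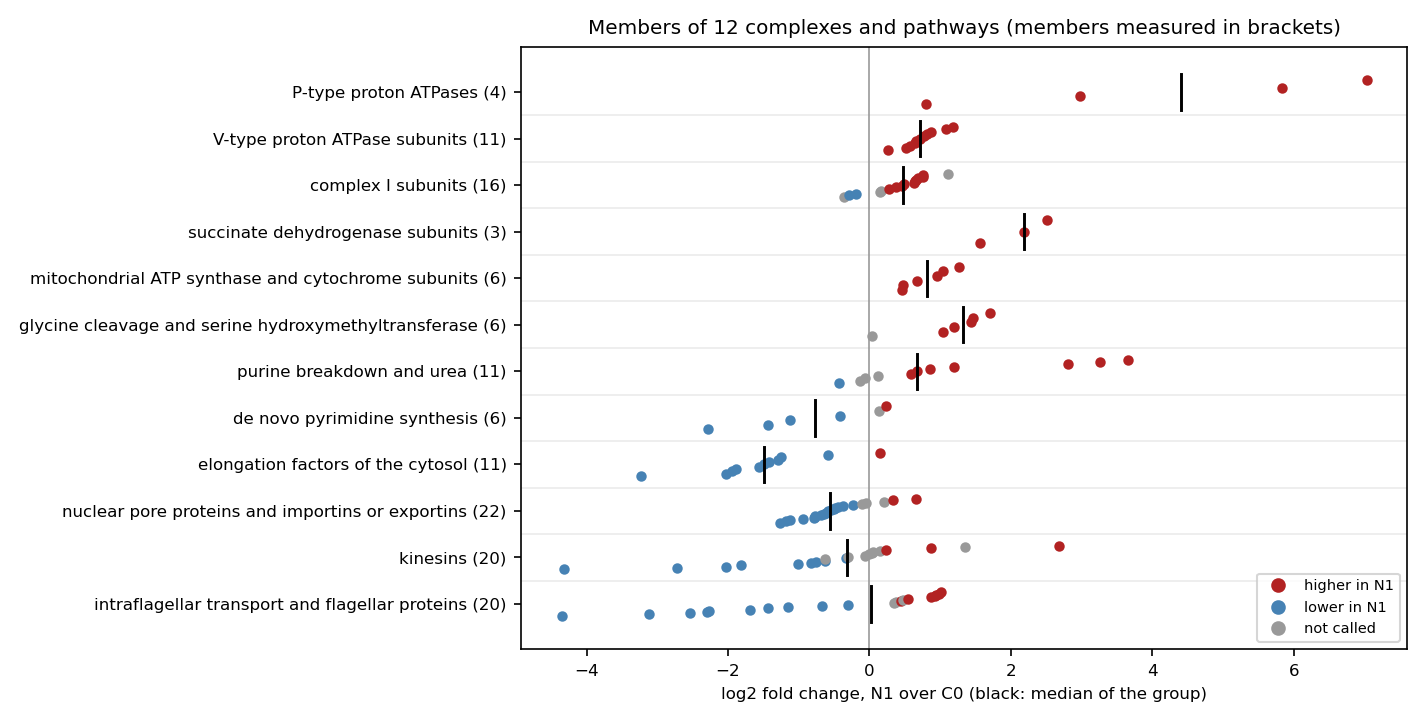
Log2 FC (N1 over C0) of each member of the complexes and short pathways assembled after the values were seen, 1 point per gene, with the median of each as a bar. All 11 V-type ATPase subunits and all 3 succinate dehydrogenase subunits lie above 0, and 10 of 11 cytosolic elongation factors lie below it.

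Central carbon genes rose next to respiration. The glycolysis and gluconeogenesis list held 29 genes at least 2-fold higher and 4 lower (median 0.58), though 27 of its members also belong to the lists set aside. Pyruvate decarboxylase 4 (NO04G01610, fractional), which turns pyruvate into acetaldehyde, had 450.2 and 457 CPM in N1, against 42.7 and 50.4 CPM in C0 (log2 FC 3.28 ± 0.070). Acetyl-coenzyme A synthetase (NO01G04110), which activates acetate, fell with 62.8 and 62.9 CPM in N1, against 179.8 and 168 CPM in C0. Of the pentose phosphate genes 16 of 36 were higher and 10 lower, and of mitochondrial carriers 21 of 40 were higher and 14 lower. Among these carriers the succinate/fumarate transporter (NO06G01850) rose with 241 and 239 CPM in N1, against 96.3 and 94.4 CPM in C0. Mitochondrial ornithine transporter 2 (NO01G05480) fell with 31.5 and 43.1 CPM in N1, against 123 and 114 CPM in C0. Peroxisome genes had a median of 0.48, with 17 of 59 at least 2-fold higher and 2 lower. The glycolate-oxidizing enzyme GLO1 (NO02G03110) rose with 295 and 288 CPM in N1, against 51.6 and 53.8 CPM in C0 (log2 FC 2.46 ± 0.063). A long-chain fatty acid CoA ligase (NO25G00730) fell with 9.52 and 10.02 CPM in N1, against 116 and 107 CPM in C0 (log2 FC −3.51 ± 0.11).

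Storage and wall polysaccharides changed by individual enzymes. Starch and sucrose metabolism had 19 of 42 genes higher and 14 lower, and enzymes of beta-glucans and the cell wall 20 of 43 higher and 13 lower. Endoglucanase NO10G03870, a cellulose- or glucan-cleaving enzyme, rose with 108 and 119 CPM in N1, against 8.73 and 10.9 CPM in C0 (log2 FC 3.52 ± 0.13). Endoglucanase NO13G03350 fell with 292 and 298 CPM in N1, against 691 and 672 CPM in C0. Beta-glucosidase 4 (NO29G01640), which frees glucose from short glucans, fell with 576 and 592 CPM in N1, against 2596 and 2624 CPM in C0 (log2 FC −2.16 ± 0.038). A beta-glucanase (NO26G01820) fell with 33.5 and 30.5 CPM in N1, against 119 and 106 CPM in C0. Cytosolic phosphoglucomutase (NO10G00740), which interconverts glucose phosphates on the way into and out of such polymers, rose with 293 and 301 CPM in N1, against 69.3 and 76.4 CPM in C0. Amino sugar and nucleotide sugar metabolism leaned the other way, with 12 of 39 higher and 22 lower. There glutamine-fructose-6-phosphate aminotransferase (NO24G01620), the nitrogen-using entry into amino sugars, fell with 17.6 and 14.1 CPM in N1, against 68.7 and 66.2 CPM in C0 (log2 FC −2.08 ± 0.13). Phosphoacetylglucosamine mutase (NO12G00110) rose with 161 and 149.8 CPM in N1, against 26.0 and 23.4 CPM in C0.

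In amino acid metabolism, genes that split glycine rose and genes that build aromatic amino acids mostly fell. Glycine, serine and threonine metabolism had 30 of 57 genes higher and 17 lower, and all 3 measured proteins of the glycine cleavage system, which splits glycine into ammonia, carbon dioxide and a one-carbon unit, rose. Glycine dehydrogenase (NO04G04760, fractional) had 1099 and 1079 CPM in N1, against 529 and 531 CPM in C0. Aminomethyltransferase (NO08G02840) had 256 and 240.2 CPM in N1, against 85.7 and 94.0 CPM in C0. The H protein (NO08G03730) had 238 and 225 CPM in N1, against 97.1 and 105 CPM in C0. Serine hydroxymethyltransferase, which makes the next one-carbon unit, rose at NO01G02190 and NO20G01610 (fractional) with log2 FCs of 1.71 ± 0.061 and 1.44 ± 0.060, and NO01G03110 (fractional) at 0.04 ± 0.11 was not called. Branched-chain amino acid breakdown had 21 of 44 genes higher and 12 lower. In it methylmalonyl-CoA mutase (NO08G02030) rose with 264 and 265 CPM in N1, against 70.5 and 60.7 CPM in C0. There 3-hydroxyisobutyrate dehydrogenase (NO05G04610, fractional) fell with 10.3 and 14.5 CPM in N1, against 75.8 and 63.6 CPM in C0. Lysine breakdown had 7 of 27 genes higher and 7 lower.

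Of the 23 genes for aromatic amino acid synthesis, arogenate dehydrogenase 1 (NO02G03180), a step to tyrosine, fell with 90.6 and 85.9 CPM in N1, against 211 and 226 CPM in C0. Tyrosine aminotransferase (NO06G02540) fell with 17.0 and 16.2 CPM in N1, against 84.6 and 80.6 CPM in C0 (log2 FC −2.31 ± 0.11). Aspartokinase/homoserine dehydrogenase (NO08G01700), at the head of threonine and methionine synthesis, fell with 208 and 216 CPM in N1, against 678 and 686 CPM in C0 (log2 FC −1.69 ± 0.047). Cysteine and methionine metabolism had 20 of 49 genes higher and 23 lower, 14 of them at least 2-fold lower. S-adenosylmethionine synthase (NO08G00670), which makes the methyl donor of the cell, fell with 181 and 185 CPM in N1, against 861 and 857 CPM in C0 (log2 FC −2.23 ± 0.049). Cystathionine gamma-lyase (NO04G03720), which forms or frees cysteine, rose with 111 and 108 CPM in N1, against 24.4 and 26.4 CPM in C0. Of sulfur metabolism 10 of 20 genes were higher and 7 lower. Within it the persulfide dioxygenase ETHE1 (NO03G04040), a mitochondrial enzyme of cysteine sulfur oxidation, had 3798 and 3876 CPM in N1, against 715 and 687 CPM in C0 (log2 FC 2.45 ± 0.030). Phosphoadenosine phosphosulfate reductase (NO12G02400, fractional), which reduces sulfate, had 88.0 and 91.7 CPM in N1, against 353 and 372 CPM in C0 (log2 FC −2.01 ± 0.060). The oxidation enzyme was high and the reduction enzyme low in both N1 libraries. Glutathione metabolism had 17 of 42 genes higher and 15 lower.

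Of the protein breakdown lists, peptidases had 41 of 96 members higher and 32 lower, and 18 at least 2-fold higher against 3 lower. The KEGG proteasome, not among the lists described, went the other way with 29 of 45 genes lower and 6 higher (median −0.56). A probable dipeptidase (NO18G01910), which cuts the last small peptides into amino acids, had 1462 and 1458 CPM in N1, against 207 and 190.1 CPM in C0 (log2 FC 2.88 ± 0.050). Gamma-glutamyl peptidase 5 (NO15G00230), an enzyme of gamma-glutamyl peptides, had 202 and 188 CPM in N1, against 16.9 and 21.8 CPM in C0 (log2 FC 3.33 ± 0.11). Methionine aminopeptidase 1 (NO17G00100), which trims the first methionine from newly made proteins, fell with 57.9 and 53.1 CPM in N1, against 415 and 399.8 CPM in C0 (log2 FC −2.87 ± 0.064). Ubiquitin-mediated proteolysis was near even, with 28 of 81 higher and 30 lower. Outside the KEGG list, the E3 ubiquitin-protein ligase RNF13 (NO15G00460), a membrane-anchored ligase, had 313 and 293 CPM in N1, against 4.76 and 4.21 CPM in C0 (log2 FC 6.07 ± 0.11). By contrast HRD1 (NO15G01300), the ligase of the endoplasmic reticulum that removes misfolded proteins, fell with 42.4 and 38.6 CPM in N1, against 128 and 137 CPM in C0.

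Genes of the machinery that makes proteins fell to differing degrees. Those of KEGG aminoacyl-tRNA synthesis, not among the lists described, had 28 of 59 lower and 20 higher (median −0.20). Of 57 translation factors 39 fell, 26 of them at least 2-fold, and 5 rose (median −0.73). Of 11 cytosolic elongation factors, which carry the ribosome along the message, 10 were lower (9 at least 2-fold), all 8 that belong to that list included, and 3 elongation factor 3 genes lie outside it (a sub-list assembled after the values were seen). Their summed levels were 3125 and 3158 CPM in N1, against 13215 and 13131 CPM in C0. Elongation factor 3B (NO06G03380, fractional), a factor first known from fungi, had 631 and 636 CPM in N1, against 5948 and 5944 CPM in C0 (log2 FC −3.23 ± 0.027). Translation elongation factor 2 (NO02G03250), which moves the ribosome by a codon, had 840.1 and 882 CPM in N1, against 3213 and 3171 CPM in C0 (log2 FC −1.89 ± 0.037). The exception, another elongation factor 3B gene (NO14G01110, fractional), had 337 and 321 CPM in N1, against 309 and 285 CPM in C0, and its call as higher was lost under 5 alternatives. Elongation factor 1-gamma 1 (NO17G00870) fell with 201 and 195 CPM in N1, against 809 and 807 CPM in C0 (log2 FC −2.03 ± 0.048). The cytoplasmic poly(A)-binding protein (NO02G00500), which holds the message tail during initiation, fell with 377 and 365 CPM in N1, against 1254 and 1255 CPM in C0 (log2 FC −1.76 ± 0.042). The bacterial-type initiation factor IF-3 (NO23G01740), as used in organelles, had 273 and 278 CPM in N1, against 189 and 187 CPM in C0 and rose.

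Ribosome assembly genes also fell more often than they rose, and lists of RNA handling leaned the same way by differing degrees, RNA degradation only slightly. Ribosome biogenesis had 50 of 80 genes lower, 14 of them at least 2-fold (median −0.43), and 12 higher. Of those higher, MPP10 (NO01G03970, fractional) had a log2 FC of 2.41 ± 0.072 and NEP1 (NO10G01790) of 1.85 ± 0.11. The next locus described as MPP10, NO01G03980 (fractional), was lower at −1.17. Midasin, a very large ATPase that strips assembly factors from the large ribosomal subunit, is annotated at a pair of neighbours. NO04G00230 had 78.5 and 72.5 CPM in N1, against 303 and 315 CPM in C0 and was 4.09-fold lower. NO04G00240 had 99.3 and 95.3 CPM in N1, against 395 and 384 CPM in C0 and was 4.00-fold lower. The largest subunit of RNA polymerase III (NO19G02000), which transcribes transfer RNAs, fell with 133 and 129.6 CPM in N1, against 466 and 451 CPM in C0 (log2 FC −1.80 ± 0.055). An RNA polymerase I subunit (NO20G01850, fractional), for ribosomal RNA, fell with 121 and 127 CPM in N1, against 399.9 and 415 CPM in C0 (log2 FC −1.72 ± 0.057). RNA polymerase II subunit 7 (NO17G01620, fractional), for messages, rose with 47.2 and 40.3 CPM in N1, against 18.9 and 23.5 CPM in C0. Over that list of 28 genes 13 were lower and 6 higher. RNA transport had 54 of 97 genes lower and 13 higher, and RNA helicases 31 of 57 lower and 16 higher. There were 31 of 66 genes lower and 15 higher in mRNA surveillance, 11 of 22 lower and 2 higher among basal transcription factors, and 27 of 64 lower and 19 higher in RNA degradation. The shares of RNA degradation, 42.2% lower and 29.7% higher, were near those of all genes (37.1% and 33.3%). At 2-fold, the RNA polymerase, mRNA surveillance, basal transcription factor and RNA degradation lists had 7.14%, 7.58%, 4.55% and 4.69% lower. Their higher shares were 3.57%, 6.06%, 0% and 3.1%, where all genes had 14.9% lower and 13.3% higher. The spliceosome list had 57 of 129 lower and 30 higher but with only 7 and 2 of these at 2-fold, and 1 of its risen members, NO12G03960, is described as an acyl carrier protein reductase and not as a splicing factor. Nuclear pore proteins, importins and exportins, the carriers between nucleus and cytoplasm, had 17 of 22 members lower and 2 higher (median −0.56, sorted after the values were seen).

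Genes of the secretory route mostly fell, as translation factors did. Protein processing in the endoplasmic reticulum had a median of −0.49, protein export −0.51 with 20 of 32 lower and 2 higher, and N-glycan biosynthesis −0.62 with 18 of 32 lower and 5 higher. The Sec61 alpha subunit (NO14G01770), the channel through which new proteins enter the endoplasmic reticulum, had 331 and 345 CPM in N1, against 949 and 946 CPM in C0 (log2 FC −1.49 ± 0.044). The chaperone of its lumen, luminal-binding protein 4 (NO15G01500), had 534 and 567 CPM in N1, against 1365 and 1377 CPM in C0 (log2 FC −1.32 ± 0.041). Both were low in N1 and were chosen after their values were seen. The DnaJ protein ERDJ2A (NO03G01230, fractional), a part of the same translocation site, fell with 47.4 and 43.5 CPM in N1, against 189 and 174 CPM in C0. Dolichyl-phosphate beta-glucosyltransferase (NO20G01110), which prepares the sugar donor for N-glycans, fell with 13.7 and 16.2 CPM in N1, against 52.0 and 48.8 CPM in C0. Derlin-2.1 (NO05G02840, fractional), of the pathway that returns misfolded proteins to the cytoplasm, rose with 42.6 and 49.0 CPM in N1, against 19.3 and 20.3 CPM in C0. Later vesicle traffic was less one-sided, with 27 of 87 genes higher and 37 lower, and the SNARE protein YKT6 (NO26G01650, fractional), used in membrane fusion, rose with 111 and 115 CPM in N1, against 15.7 and 14.7 CPM in C0 (log2 FC 2.89 ± 0.11).

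Genes of microtubules and their motors fell far more often than they rose. Of 62 measured tubulins, kinesins and dyneins, of 76 in the files, 33 fell, 19 of them at least 2-fold, and 10 rose (median −0.58). The intraflagellar transport protein IFT140 (NO13G00050), which in flagellated cells moves cargo back from the flagellar tip, had 2.78 and 2.34 CPM in N1, against 55.6 and 50.2 CPM in C0 (log2 FC −4.35 ± 0.21). The kinesin FLA10 (NO09G02420, fractional), which in Chlamydomonas drives transport to the tip, had 2.58 and 1.92 CPM in N1, against 45.5 and 45.2 CPM in C0 (log2 FC −4.31 ± 0.22). Kinesin-associated protein 3 (NO10G00950), in that alga a partner of the same motor, rose with 110.0 and 113 CPM in N1, against 17.1 and 17.6 CPM in C0 (log2 FC 2.68 ± 0.099). Flagellar genes did not fall together, for of 20 measured genes of 28 in the files 10 were lower and 7 higher (8 and 1 at least 2-fold, median 0.02). Many of these genes held few counts, since 2 CPM in a library of this depth is about 10 counts.

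Actin and myosin genes had 14 of 27 members lower and 8 higher (9 and 2 at least 2-fold). Unconventional myosin-Va (NO03G04280), a cargo motor on actin, had 55.9 and 55.8 CPM in N1, against 399.7 and 392 CPM in C0 (log2 FC −2.82 ± 0.061). Myosin-14 (NO04G03010) had 34.1 and 38.6 CPM in N1, against 213 and 189 CPM in C0 (log2 FC −2.47 ± 0.096). An actin gene (NO03G02620, fractional) rose with 654 and 663 CPM in N1, against 387 and 396 CPM in C0. The preceding actin gene, NO03G02610 (fractional), went the other way with 59.3 and 52.2 CPM in N1, against 138 and 143 CPM in C0. The part of divided reads in this pair was not tested. SUN domain-containing protein 1 (NO08G01020), which ties the nuclear envelope to the cytoskeleton, had 11.1 and 13.9 CPM in N1, against 139 and 132 CPM in C0 (log2 FC −3.44 ± 0.13). Cyclins and cyclin-dependent kinases had 12 of 57 members higher and 23 lower. Cyclin-U3-1 (NO14G02130) fell with 809 and 762 CPM in N1, against 2113 and 2078 CPM in C0. Cell division cycle protein 20 (NO02G02210), an activator of the anaphase ubiquitin ligase, rose with 21.4 and 19.8 CPM in N1, against 4.37 and 6.51 CPM in C0. DNA repair genes had 28 of 106 higher and 40 lower.

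Cofactor and pigment lists were mixed. Terpenoid backbone synthesis had 15 of 31 genes higher and 8 lower, carotenoid synthesis 9 of 19 higher and 6 lower, quinones 6 of 16 higher and 7 lower, folate 14 of 31 higher and 9 lower, and B vitamins 33 of 85 higher and 30 lower. Among carotenoid enzymes, LUTEIN DEFICIENT 5 (NO06G03910), in Arabidopsis a hydroxylase of carotene rings, rose with 86.0 and 78.2 CPM in N1, against 7.74 and 7.66 CPM in C0 (log2 FC 3.41 ± 0.13). Violaxanthin de-epoxidase, which forms zeaxanthin in strong light, rose at NO11G00920 with 119.7 and 124 CPM in N1, against 27.8 and 30.1 CPM in C0. It fell at NO03G00410 with 54.9 and 56.5 CPM in N1, against 131 and 129 CPM in C0. Geranylgeranyl diphosphate reductase (NO10G02590), which makes the phytyl chain of chlorophyll and tocopherol, rose with 1636 and 1675 CPM in N1, against 536 and 514 CPM in C0. Farnesyl diphosphate synthase (NO22G01230, fractional), on the way to sterols, fell with 50.0 and 52.0 CPM in N1, against 161 and 151 CPM in C0. The next locus of that description, NO22G01240 (fractional), went the other way with 221 and 226 CPM in N1, against 166 and 157 CPM in C0. How reads were divided between these loci could move both values and was not tested. Of 12 cytochromes P450, 6 rose and 6 fell, and the largest change among those with counts in each library was that of P450 3A13 (NO11G00060), with 78.9 and 88.7 CPM in N1, against 667 and 654 CPM in C0 (log2 FC −2.98 ± 0.067).

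Some genes were found in one group alone. No count was recorded in either C0 library for 40 of the genes tested, of which 10 reached 10 CPM in N1, and none in either N1 library for 46, of which 23 reached 10 CPM in C0. Counts were fractional in all 10 of those seen in N1 and in 21 of the 23 seen in C0. Against a floor of 3 counts in each library of the empty group, purine nucleoside phosphorylase 1 (NO05G01230), an enzyme of purine salvage, was at least 44.8-fold higher in N1, with 25.6 and 26.9 CPM in N1, against 0 and 0 CPM in C0. On the same floor the vacuolar protease A gene NO15G01050 was at least 111-fold lower, with 0 and 0 CPM in N1, against 69.1 and 68.0 CPM in C0. Of the 10 such genes that were named, 6 follow a locus of the same description, as NO05G01230 follows NO05G01220, and the part of a shift of divided reads between such loci was not tested. For the pair of P450 97B3 loci, NO02G03210 and NO02G03220, the summed level was 493 and 521 CPM in N1, against 207 and 218 CPM in C0, or 2.39-fold higher, where NO02G03220 taken alone was at least 200-fold higher.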

How the data were processed

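RNA-seq was made from 6 libraries of N. oceanica IMET1, 2 at day 0 (C0), 2 after 1 day (N1) and 2 after 2 days (N2) without nitrogen, and grouped by the sample labels. The deposited tables give expected counts (estimated counts of reads per gene) for each library. The submitters' processing notes name Trim Galore, STAR, Picard, featureCounts, StringTie and edgeR without versions, and the methods name the IMET1 genome of the NanDeSyn database. The notes do not say which tool gave the estimated counts, of which 74.9% of the tested genes had whole numbers in all libraries. Deposited tables of the authors' own comparisons (log2 fold change, p-value and FDR) were not used. KEGG, GO and KOG annotations came from the deposited files.

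Estimated counts were rounded. Genes below 1 CPM in all but 1 of the 6 libraries were left out, which removed 833 genes with 0.0135% of the counts. The rest were fitted in R 4.3.3 with edgeR 4.0.16 (limma 3.58.1): TMM normalization (factors 0.962 to 1.04), group as the only term, all 6 libraries in one fit, and the quasi-likelihood test of N1 against C0, 2-sided, with Benjamini-Hochberg adjustment over all genes tested. The approximate standard error was taken as the size of the log2 fold change over the root of its F statistic (median 0.113). CPM used TMM-scaled library sizes. The procedure was tested on simulated counts. Lists needed 5 measured members. For each list up to 2 rises and 2 falls were named, chosen by size among genes called in the full fit and in each fit without 1 library, with a mean of at least 10 CPM and over 3 counts in each library. The 12 largest rises and falls of genes with a named function outside the lists set aside were named by the same rule, along with 5 genes with no counts in C0 and 5 with none in N1. Folds against a group at 0 use a floor of 3 counts in each library, and 95% exact intervals and floors cover counting error only. The members, lists and naming rule were chosen with earlier results of these data known, and the sub-lists and added genes after their values were seen, so that none carries a test as a group. Alternatives were RLE size factors, library totals, DESeq2 1.42.0, no filter, only the N1 and C0 libraries, a replicate block, an adjusted p threshold of 0.01 and leaving out each library. Same-numbered libraries did not deviate together (r = −0.022), and no source pairs them. No genome was used, so no sequences or coordinates are given.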

Additional observations from a re-analysis of the deposited data

How the results depend on the processing

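Under the 13 alternatives the number of genes higher in N1 ranged from 2847 to 3373 and the number lower from 2913 to 3811, beside 3240 and 3611 in the main analysis, and those changed at least 2-fold from 1201 to 1380 higher and from 1302 to 1560 lower, beside 1296 and 1450. DESeq2 called 2898 higher and 2913 lower. Leaving out each library in turn gave 2969 to 3224 higher and 3268 to 3594 lower. The replicate numbers pair no samples by any source, and with the replicate block 3197 genes were higher and 3548 lower. Scaling moved the balance of calls: 47.3% of the calls were higher with TMM, 49.1% with RLE size factors and 44.4% with library totals, and the median log2 fold change of all genes was −0.04, −0.01 and −0.10. All 209 genes named by the rule in the methods kept their direction and call in each of their 2717 values under the alternatives, which does not cover the genes added after their values were seen. The rule itself asked for the call in each fit without 1 library, except for genes with no counts in one group. Agreement in those fits was thus fixed by the choice of genes, and choosing large changes favoured agreement in the others. Of 1950 counts of list and sub-list members, 67 moved by more than 1.5 times, nearly all of them small counts. The larger ones were RNA degradation genes lower (27, but 16 by DESeq2), peroxisome genes lower (12, with 5 to 13 over the alternatives) and oxidative phosphorylation genes lower (8, with 3 to 8). The causes were not tested. With 2 libraries in each group, small differences on the log2 scale, and levels of a few counts as in several flagellar genes, are the least certain.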

Other observations

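Genes without a named function made up 3808 of the genes tested and moved about as often as the rest, with 554 at least 2-fold higher (14.5%) and 576 at least 2-fold lower (15.1%) in N1 and a median log2 fold change near 0 (−0.00183).

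Loci with consecutive numbers and the same description formed 262 pairs among the genes tested. Both loci were called in 140 pairs, of which 94 changed in the same direction and 46 in opposite directions. Counts were whole numbers at both loci in 39 of the 262 pairs, in 23 of the 94 pairs that changed together and in 1 of the 46 that changed in opposite directions. That pair was the ADP-ribosylation factors NO11G03550, with 84.4 and 88.9 CPM in N1, against 73.4 and 72.9 CPM in C0, and NO11G03560, with 81.7 and 78.4 CPM in N1, against 101 and 103 CPM in C0. The part of divided reads in the other 45 pairs was not tested. The pairs were counted after single cases had been seen.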
